A study of Caenorhabditis elegans with 12 samples.

Results

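The transcriptome of L4 larvae that lack raga-1 was compared with that of wild type (WT) larvae. The comparison took in the 8 samples of the 12 in the series whose genotype label was Wildtype or RagA_mutant, 4 of each. The WT animals were N2, and the mutants carried the loss-of-function deletion allele raga-1(ok386) in every cell, with no transgene. Both groups were Caenorhabditis elegans fed HT115 bacteria that carried the empty L4440 vector. Each sample was polyadenylated RNA from about 1000 whole mid-L4 animals, synchronised by their own timed egg lay. With the first collection date as day 1, WT samples 1 to 4 were collected on days 2, 4, 6 and 8 and mutant samples 1 to 4 on days 1, 2, 4 and 6. Between 14287510 and 35619305 estimated read counts per sample were assigned to 21882 genes, and 15307 genes with enough counts were tested. Values are CPM, the counts of a gene scaled to a fixed library size common to all samples, and 3 counts correspond to between 0.0836 and 0.212 CPM depending on the sample.

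RAGA-1 is the worm orthologue of the small GTPase RagA. When amino acids are plentiful, RagA and RagC together bring the kinase complex TORC1 to the surface of the lysosome, where it is switched on. Active TORC1 promotes ribosome production, translation and growth and holds back autophagy, and lowering its activity lengthens life in worms and other animals.

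The deletion was followed in the study with 3 genotyping primers on chromosome II, shown because they define which animals were mutant.
forward primer 1: tgctcatgtcaagtaagggatcaattc
forward primer 2: ttcaagtccgaaacagtcaattctc
reverse primer: ggaactgaagcgatcacaccgac

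raga-1 itself was the first check of the labels. It lies on the forward strand of chromosome II, from position 11301359 to 11302776 of assembly WBcel235. Its level was 68.6, 60.7, 65.1 and 65.4 CPM in WT samples 1 to 4 and 1.42, 1.73, 1.45 and 1.53 CPM in mutant samples 1 to 4. Every mutant library lay far below every WT library, with a log2 fold change of -5.39 ± 0.09 (SE, n = 4 per group, edgeR adjusted p = 2.04e-08). Between 31 and 62 counts per mutant library were still assigned to the gene. The other genes of the TORC1 pathway did not pass the test: 12 of the 13 genes listed, among them let-363, which encodes TOR, had log2 fold changes between -0.09 and 0.26. let-363 was at 169 to 183 CPM in WT and 169 to 189 CPM in mutants, and ragc-1, the RagC gene, at 74.1 to 89.5 and 77.1 to 92.1 CPM.

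The gene immediately downstream of raga-1 on the same strand, samp-1, was also lower in the mutants. It starts at position 11302891, and its level was 53.8 to 68.3 CPM in WT and 35.0 to 39.5 CPM in mutants (log2 fold change -0.74 ± 0.09 SE, n = 4 per group, edgeR adjusted p = 0.00106). Within 100 kb of raga-1, 5 of the 31 other genes tested were lower and 0 higher, against 5.36% lower and 3.70% higher of all genes tested at the same threshold. Those were samp-1, B0491.7, cox-15, cchl-1 and rpn-9. Within 1 Mb the counts were 27 lower (7.22%) and 10 higher (2.67%) of 374.

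The WT libraries did not form 1 tight group, and this touches the results below. WT samples 1 and 3 lay together and WT samples 2 and 4 lay together. The distance over log2 CPM of all genes tested was 55.9 between samples 1 and 3 and 45.4 between samples 2 and 4, against 66.5 or more across these pairs. Mutant libraries were 36.5 to 50.9 apart, and the median distance between groups was 78.3. The first principal component, with 46.4% of the variance, set WT 1 and 3 at -69.4 and -42 against values from 7.63 to 28.3 for the other 6 libraries, and the second component, with 31.2%, set all mutants below all WT libraries. No label separates the WT pairs. The median SD of log2 CPM was 0.203 among WT and 0.127 among mutant libraries. For the lists whose medians moved most, values are therefore also given against each WT pair. The calls are those of a test on all WT libraries. It pools their spread with that of the mutants, although the SD was larger in WT for 72% of genes.

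**Figure D1:**
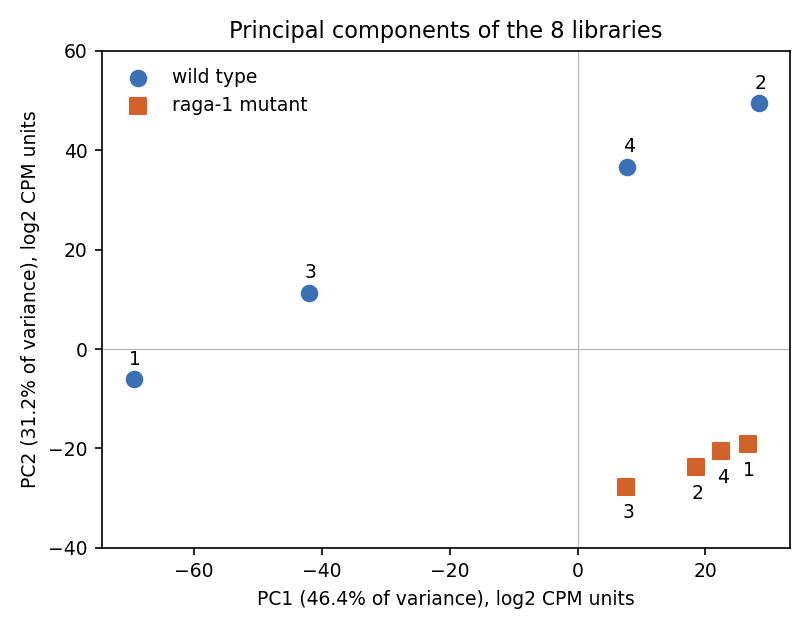
Principal components of log2 CPM over 15307 genes, with PC1 (46.4% of the variance) across and PC2 (31.2%) up; each point is 1 library, labelled by replicate number, circles for wild type and squares for the raga-1 mutant. The 4 mutant libraries sit close together at PC2 from -27.8 to -19.2, whereas wild type 1 and 3 are apart from wild type 2 and 4 along PC1.

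Of the 15307 genes tested, 1387 (9.06%) differed between mutant and WT at an adjusted p under 0.01 in the edgeR quasi-likelihood test. More genes fell than rose: 821 genes (5.36%) were lower and 566 (3.70%) were higher in the mutants. Most differences were modest, with a median log2 fold change of -0.48 among the genes that fell and 0.77 among those that rose. The larger changes were mainly rises, since 208 genes rose and 87 fell by more than 1 on the log2 scale. The groups did not overlap for any of the 1387. Over all genes tested, groups that did not overlap were found for 13.6% (mutant higher) and 16% (mutant lower). Against WT 1 and 3 alone and WT 2 and 4 alone, 370 of the higher and 501 of the lower genes kept their call and direction in both. The pairs were found in these same data, and each lies closer together than the WT libraries as a whole. These fits therefore understate the WT spread and are no independent check of the calls. The median log2 fold change of all genes was 0.01. A fit with collection day as a block compares the groups only within the 3 days that hold 1 sample of each. That leaves little from which to measure spread, so a call lost there does not tell day and genotype apart. In that fit 0 of the 1387 genes changed direction. With collection day as a block, 1 of the 1387 genes, raga-1, kept its call, and 3586 genes had an unadjusted p under 0.05 (5700 without the block). RNA came from whole animals, so fewer cells of a type and less RNA per cell cannot be told apart. A gene is said below to have risen or fallen where it passed this test, and each gene so named kept its call in all 8 fits that left out 1 library unless a number of lost calls is given.

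**Figure D2:**
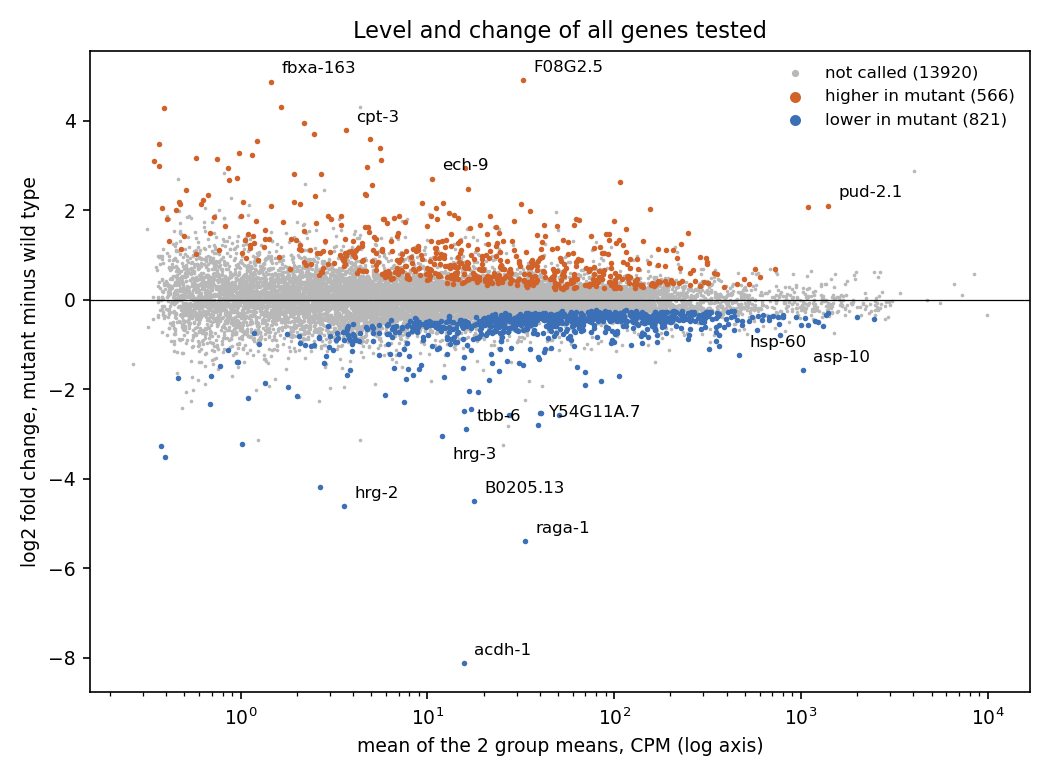
Each point is 1 of 15307 genes, with its mean level in CPM (log axis) across and its log2 fold change, mutant minus wild type, up; orange points are the 566 genes called higher, blue points the 821 called lower and grey points the rest. acdh-1 at -8.13 and raga-1 at -5.39 are at the bottom, and F08G2.5 at 4.92 and fbxa-163 at 4.87 are at the top.

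The deepest fall was in acdh-1, the acyl-CoA dehydrogenase of the propionate shunt, a side route for breaking down propionate that worms use when vitamin B12 is short. Its level was 19.2, 12.6, 15.5 and 77.7 CPM in WT samples 1 to 4. In the mutants it was 0.202, 0.0558, 0.0937 and 0.0924 CPM, which is 5, 2, 2 and 2 counts. With so few mutant counts the summed counts, 2988 in WT and 11 in mutants, give a ratio of 314 with an exact 95% interval of 175 to 631 that covers counting error only. WT sample 4 was well above the other 3 WT samples.

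Other genes of the shunt and of vitamin B12 metabolism fell with acdh-1. The list held 15 genes, of which 5 fell (33.3%, against 5.36% of all genes), 0 rose and 12 had negative log2 fold changes. Its median was -0.27 (-0.36 against WT 1 and 3 and -0.08 against WT 2 and 4). hphd-1, the shunt's transhydrogenase, was at 89.7, 69.1, 87.2 and 130 CPM in WT and 31.1, 32.3, 36.3 and 32.8 CPM in mutants (log2 fold change -1.51 ± 0.17 SE, n = 4 per group, edgeR adjusted p = 0.00102). nhr-68, a nuclear hormone receptor that switches the shunt on, was at 23.8, 20.7, 19.5 and 22.8 CPM in WT and 10.5, 9.95, 10.9 and 11.5 CPM in mutants, a log2 fold change of -1.02 ± 0.09. mtrr-1, the methionine synthase reductase, fell by 0.50 ± 0.05 on the log2 scale. ech-6, the hydratase of the shunt, fell by 0.67 ± 0.09 on the log2 scale and lost its call in 1 of the 8 fits. Of 16 genes of the methionine cycle and phosphatidylcholine synthesis, 3 fell (18.8%) and 0 rose. The list's median was -0.38 (-0.48 against WT 1 and 3 and -0.13 against WT 2 and 4). Among the 3 were the S-adenosylmethionine synthetase genes sams-3 (log2 fold change -0.59 ± 0.05) and sams-5 (-0.49 ± 0.05).

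Of the heme genes named hrg, 4 fell, and they were not on a list of their own. Worms cannot make heme and take it up from their food through transporters such as HRG-1 and HRG-4, while HRG-3 is a secreted heme carrier and HRG-2 a heme-binding membrane protein. hrg-2 was at 8.77, 4.2, 9.05 and 5.58 CPM in WT samples and 0.283, 0.335, 0.187 and 0.277 CPM in mutants (log2 fold change -4.61 ± 0.33 SE, n = 4 per group, edgeR adjusted p = 0.000142). hrg-3 was at 17.8, 23.2, 16.9 and 27.8 CPM in WT and 2.75, 2.01, 2.62 and 3.05 CPM in mutants, a log2 fold change of -3.05 ± 0.21. Both were among the 10 largest falls. hrg-4 (log2 fold change -1.58 ± 0.11) and hrg-1 (-0.97 ± 0.12), chosen after their values were seen, also fell, whereas hrg-5 (-0.55) and hrg-6 (0.22) did not pass the test. hrg-1 overlaps R02E12.9 on the same strand, so its counts are uncertain.

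The remaining large falls included several genes without a known role. tbb-6, a beta-tubulin gene known to be switched on by mitochondrial stress, was at 18.5, 27.7, 30.9 and 35.9 CPM in WT and 3.03, 3.43, 4.12 and 4.76 CPM in mutants (log2 fold change -2.89 ± 0.23 SE, n = 4 per group, edgeR adjusted p = 0.000187). Y54G11A.7 fell from 80.6, 62.9, 66.5 and 62.3 CPM to 10.2, 9.20, 10.4 and 9.20 CPM, with a log2 fold change of -2.80 ± 0.10 (edgeR adjusted p = 6.1e-06). Groups were far apart in both genes. The neighbouring genes B0205.13 (-4.51 ± 0.34) and B0205.14 (-3.23 ± 0.27) fell together. B0205.14 summed to 169 counts in WT and 20 in mutants. nspc-5 (-4.19 ± 0.78) lost its call in 6 of the 8 fits that left out 1 library, and hsp-16.48 (-2.58 ± 0.47), a small heat shock gene, in 7 of the 8. hsp-16 genes exist in near-identical copies, so the split of reads among them is uncertain.

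**Figure D3:**
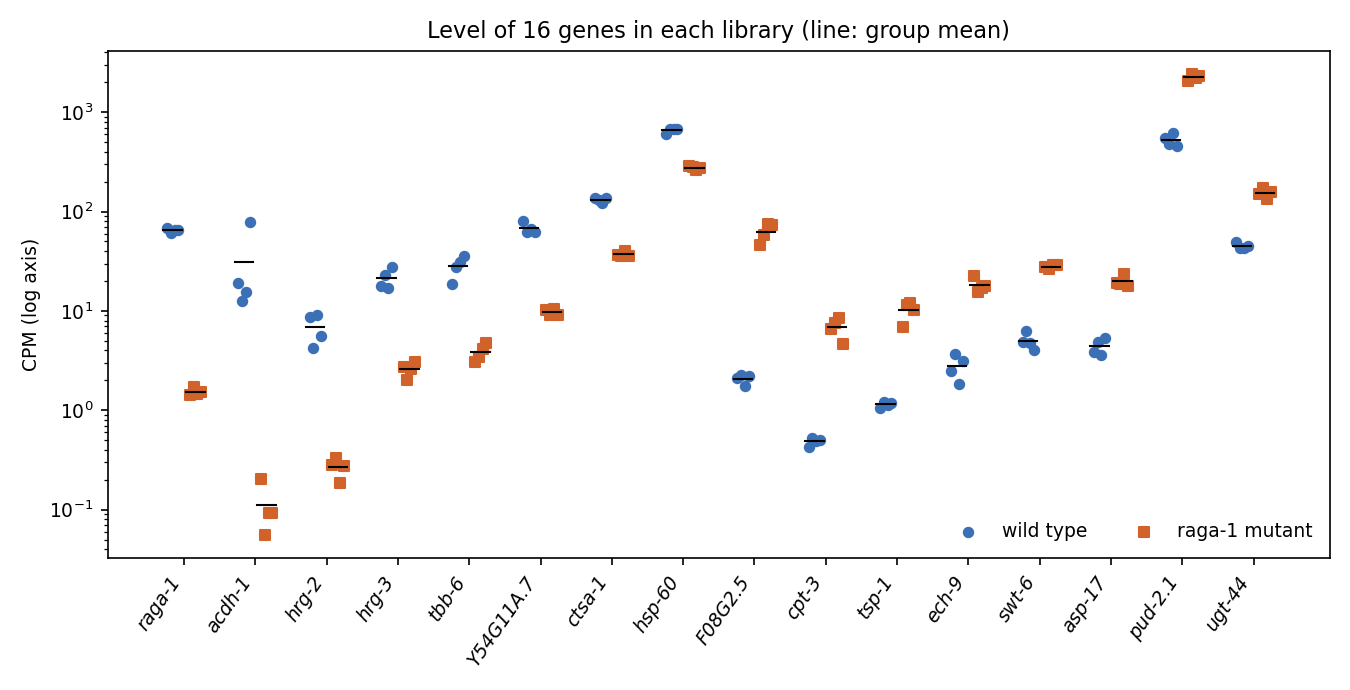
Level in CPM (log axis) of 16 genes in each of the 8 libraries, blue circles for wild type and orange squares for the raga-1 mutant, with a line at each group mean. The 8 genes on the left, from raga-1 to hsp-60, are lower in every mutant library, and the 8 on the right, from F08G2.5 to ugt-44, are higher in every mutant library.

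Mitochondrial chaperones and proteases fell together. These genes are known targets of the mitochondrial unfolded protein response, which raises them when protein folding in the organelle fails. hsp-60 was at 598, 671, 682 and 675 CPM in WT and 288, 283, 263 and 275 CPM in mutants (log2 fold change -1.24 ± 0.06 SE, n = 4 per group, edgeR adjusted p = 4.21e-05). hsp-6, the mitochondrial HSP70, was at 910, 981, 1020 and 985 CPM in WT and 616, 563, 521 and 548 CPM in mutants, a log2 fold change of -0.79 ± 0.07. The proteases spg-7 (-0.77 ± 0.05) and lonp-1 (-0.64 ± 0.05) fell too. With these 4 of 11 listed genes lower (36.4%, against 5.36% of all genes) and 0 higher, the list's median log2 fold change was -0.23. atfs-1, the transcription factor of the response, was at 55 to 73.5 CPM in WT and 63 to 69.6 CPM in mutants and did not pass the test.

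Genes of the machinery that makes protein inside mitochondria leaned downward. Of 63 mitochondrial ribosomal protein genes, 30 fell (47.6%, against 5.36% of all genes), 0 rose and 62 had negative log2 fold changes. Their median was -0.32, close to the values against WT 1 and 3 (-0.31) and WT 2 and 4 (-0.32). mrpl-30 was at 26.9 to 30.4 CPM in WT and 18.1 to 20.4 CPM in mutants (log2 fold change -0.59 ± 0.07), and mrps-22 at 76.5 to 85.0 and 51.4 to 58.9 CPM (-0.56 ± 0.06). The mitochondrial elongation factor genes tufm-1 (-0.65 ± 0.05) and gfm-1 (-0.56 ± 0.05) fell likewise. Of 38 nuclear genes of the respiratory chain, 9 fell (23.7%), 0 rose and 37 were negative, with a median of -0.23. The deepest of these was cyc-2.2, a cytochrome c gene, at 54 to 67.4 CPM in WT and 31.3 to 36 CPM in mutants. None of the 12 protein-coding genes of the mitochondrial genome or the 8 genes of mitochondrial fission and fusion was called by edgeR, with medians of -0.11 and -0.04 and 5 and 3 members at an unadjusted p under 0.05 and 1 and 1 called by DESeq2. Counts of called genes shrank when 1 library was left out, to between 10 (without WT 4) and 22 for mitochondrial ribosomal genes and between 1 (without WT 4) and 5 for the respiratory chain.

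Among genes for protein synthesis, calls were again falls. Of 33 tRNA synthetase genes, which load amino acids onto tRNAs, 20 fell (60.6%, against 5.36% of all genes), 0 rose and 32 were negative. The list's median log2 fold change was -0.28. aars-1 was at 33.8 to 36.4 CPM in WT and 25.6 to 27.3 CPM in mutants, nars-1 at 188 to 197 and 143 to 149 CPM, and sars-1 at 244 to 252 and 175 to 196 CPM. pars-2, the enzyme for proline in mitochondria, changed by -0.63 ± 0.08 and overlaps T27F6.6 on the same strand. Of 46 translation factor genes, 18 fell (39.1%), 0 rose and 43 were negative (median -0.25). Beside tufm-1 and gfm-1, the largest falls were clu-1 (-0.61 ± 0.06), whose yeast relative binds the initiation machinery and positions mitochondria, and eif-3.J (-0.58 ± 0.06), an initiation factor subunit. 1 called member, eftu-2, is known as a splicing factor.

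Calls among genes of ribosome production were falls too. Of 17 ribosome biogenesis genes, 8 fell (47.1%), 0 rose and 16 were negative (median -0.30). rpoa-2, a subunit of the polymerase that makes ribosomal RNA, was at 128 to 157 CPM in WT and 87.6 to 95.8 CPM in mutants (-0.58 ± 0.07). nol-5, a nucleolar RNA-modifying factor, was at 544 to 593 and 392 to 412 CPM (-0.48 ± 0.05). Of 81 cytosolic ribosomal protein genes, 5 fell (6.2%), near the 5.36% of all genes tested, although 69 were negative, and their median was -0.14. Leaving out 1 library left between 7 (without WT 3) and 12 tRNA synthetase genes called, between 10 (without mutant 2) and 18 translation factor genes, and between 2 (without mutant 2) and 6 ribosome biogenesis genes.

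The proteasome, which degrades proteins tagged with ubiquitin, had the largest share of members called among these lists. All 33 tested genes of its 2 parts, the 20S core (pas and pbs genes) and the 19S cap (rpn and rpt genes), had negative log2 fold changes, and 28 of them fell, against 5.36% of all genes. The summed level of the 33 genes was 6720, 6810, 6840 and 6790 CPM in WT samples 1 to 4 and 5410, 5290, 5350 and 5270 CPM in mutants, so the groups were far apart and each was tight. pas-1, a core subunit, was at 193, 191, 191 and 192 CPM in WT and 141, 141, 139 and 139 CPM in mutants (log2 fold change -0.45 ± 0.04 SE, n = 4 per group, edgeR adjusted p = 0.000328). pas-2 (-0.48 ± 0.05) of the core and the cap ATPases rpt-4 (-0.44 ± 0.05) and rpt-6 (-0.42 ± 0.04) changed by like amounts. The list's median was -0.36, and -0.35 against either WT pair. Between 10 (without mutant 2) and 27 genes stayed called with 1 library left out.

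Chaperones outside mitochondria were lower in part. Of 19 genes of the unfolded protein response of the endoplasmic reticulum, 5 fell (26.3%, against 5.36% of all genes) and 0 rose (median -0.39). pdi-6, a protein disulfide isomerase, was at 521 to 558 CPM in WT and 313 to 351 CPM in mutants (-0.67 ± 0.06), and hsp-3, a BiP chaperone, at 1380 to 1520 and 996 to 1070 CPM (-0.50 ± 0.06). hsp-4, the other BiP gene, overlapped between groups and did not pass the test. Leaving out 1 library left between 2 (without mutant 2) and 9 of the 19 called. Of 19 cytosolic heat shock genes 3 fell (15.8%), and between 0 (without mutant 4) and 6 were called with 1 library left out. The list's median was -0.38 (-0.08 against WT 1 and 3 and -0.50 against WT 2 and 4).

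**Figure D4:**
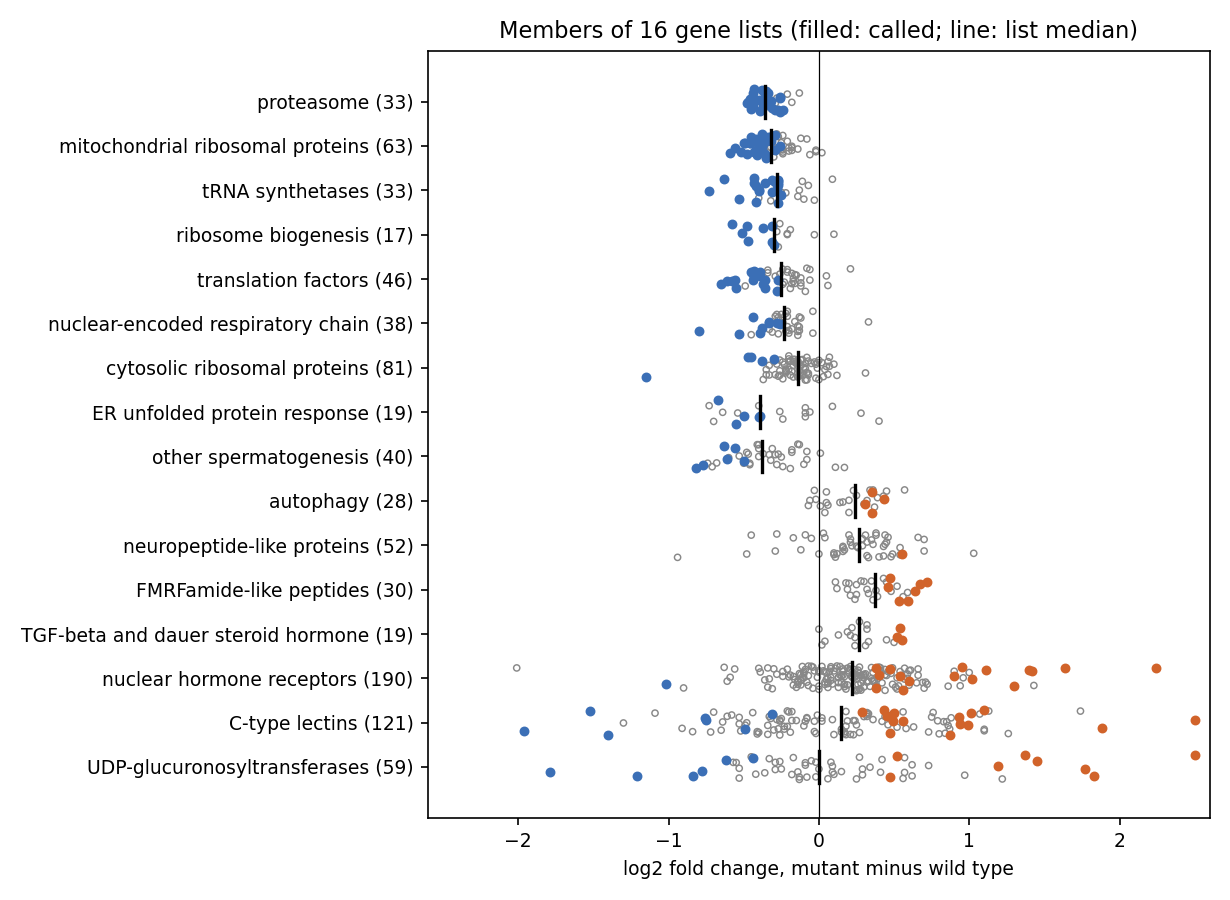
Log2 fold change, mutant minus wild type, of every tested member of 16 gene lists (number tested in brackets); filled points passed the test, orange for higher and blue for lower, open points did not, and the black line is the list median. The 2 members beyond 2.5 are drawn at the edge. Proteasome members are all to the left of 0 and FMRFamide-like peptide genes all to the right, whereas the C-type lectins and UDP-glucuronosyltransferases spread to both sides.

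The highest rise belonged to F08G2.5, a gene of unknown role on chromosome II. It was at 2.12, 2.27, 1.75 and 2.19 CPM in WT and 45.6, 57.9, 75.5 and 72.8 CPM in mutants (log2 fold change 4.92 ± 0.19 SE, n = 4 per group, edgeR adjusted p = 1.01e-05). Of its tested neighbours, F08G2.4 (0.18), F08G2.7 (0.08) and F08G2.8 (0.17) did not pass the test. ins-37, which spans positions 13835101 to 13836107 on the same strand, lies close to F08G2.5 at 13833095 to 13833631. ins-37 rose by 0.53 ± 0.08 on the log2 scale and lost its call in 4 of the 8 fits. The histone gene his-11, also nearby at positions 13821809 to 13822177, was called higher but lost its call in 7 of the 8 fits. Several of the other large rises started from a few counts, so ratios of summed counts with exact 95% counting intervals are given. fbxa-163, an F-box gene, had 8 counts in WT and 265 in mutants, a ratio of 28.6 (14.3 to 67.0), and its mutant libraries ranged from 1.00 to 5.27 CPM. phat-5, of a family expressed in pharyngeal glands, had 14 and 333 counts, a ratio of 20.6 (12.1 to 38). Y68A4A.13 had 23 and 409 counts (15.4, 10.1 to 24.5), and C04H5.9 17 and 254 counts (12.9, 7.90 to 22.5). The groups did not overlap in any of these. F49H6.13 and the serpentine receptor-like gene srr-6 rose by 3.59 ± 0.43 and 3.39 ± 0.37 on the log2 scale.

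Lipid genes moved in both directions. cpt-3, of the carnitine palmitoyltransferase family that passes fatty acids into mitochondria, was at 0.425, 0.525, 0.495 and 0.500 CPM in WT and 6.64, 7.56, 8.48 and 4.67 CPM in mutants (log2 fold change 3.79 ± 0.22 SE, n = 4 per group, edgeR adjusted p = 7.71e-05). cpt-5 (1.61 ± 0.18) rose as well, and cpt-1 (0.72 ± 0.11) rose but lost its call in 3 of the 8 fits. ech-9, of the enoyl-CoA hydratase family, was at 2.48, 3.72, 1.83 and 3.15 CPM in WT and 22.5, 15.6, 17.2 and 17.9 CPM in mutants, a log2 fold change of 2.71 ± 0.22. In the list of 62 fatty acid activation and oxidation genes 5 rose (8.1%) and 11 fell (17.7%), acdh-1 among them, against 3.70% and 5.36% of all genes. With 1 library left out between 4 (without mutant 2) and 12 fell, and the list's median was -0.15 against WT 1 and 3 and 0.10 against WT 2 and 4. acs-2, an acyl-CoA synthetase known to be induced by fasting, fell from 6.30, 10.9, 11.6 and 20.7 CPM to 3.56, 2.68, 1.5 and 2.40 CPM, and its call (log2 fold change -2.29 ± 0.38) was lost in 5 of the 8 fits. fat-7, a desaturase that makes oleic acid, rose by 1.34 ± 0.26 on the log2 scale, and lost its call in 7 of the 8.

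Lysosomal enzymes were reshuffled rather than moved 1 way. Of 30 proteases and lipases tested, 4 rose (13.3%) and 6 fell (20%), against 3.70% and 5.36% of all genes. The list's median was 0.03. With 1 library left out between 4 and 5 rose and between 3 (without WT 4) and 7 fell. asp-17, an aspartyl protease gene, was at 3.82, 4.90, 3.58 and 5.31 CPM in WT and 19.3, 18.5, 23.7 and 17.8 CPM in mutants (log2 fold change 2.16 ± 0.16 SE, n = 4 per group, edgeR adjusted p = 0.000146). asp-10, a far more abundant relative, went the other way, from 1760, 1360, 1510 and 1480 CPM to 489, 424, 635 and 498 CPM (-1.58 ± 0.13). asp-14 (1.46 ± 0.11) and the cathepsin B gene cpr-3 (1.98 ± 0.18) rose, whereas cpr-8 (-1.09 ± 0.09) and cpr-5 (-1.04 ± 0.12) fell. lipl-3, a lysosomal lipase known from fasted worms, had 20 counts in WT and 222 in mutants, a ratio of 9.59 (exact 95% interval 6.06 to 16, counting error only). It overlaps srw-107 on the same strand, so its counts are uncertain. lipl-2 (-0.87 ± 0.15) and lipl-5 (-0.72 ± 0.12) fell, with the call lost in 5 and 6 of the 8 fits. ctsa-1, a serine carboxypeptidase gene of the cathepsin A type chosen after its values were seen, was at 138, 130, 123 and 136 CPM in WT and 36.7, 35.7, 40.5 and 35.9 CPM in mutants (-1.82 ± 0.06, edgeR adjusted p = 6.1e-06), and overlaps clec-88 on the same strand.

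Autophagy genes leaned upward by small amounts. Of 28 genes, 4 rose (14.3%, against 3.70% of all genes), 0 fell and 24 had positive log2 fold changes. The list's median was 0.24 (0.25 against WT 1 and 3 and 0.23 against WT 2 and 4). The 4 were hlh-30, the worm TFEB that drives autophagy and lysosome genes (0.31 ± 0.06), the cargo receptor gene sqst-1 (0.35 ± 0.07), atg-18 (0.43 ± 0.08) and atg-16.2 (0.35 ± 0.07). sqst-1 was at 61.3, 71.0, 61.7 and 64.2 CPM in WT and 82.2, 79.7, 89.1 and 79.2 CPM in mutants. Each lost its call in 6 to 8 of the 8 fits with 1 library left out, which called between 0 (without WT 3) and 3 of the 28. hlh-30 overlaps F35F11.4 on the same strand. Of 21 genes of the vacuolar proton pump 0 were called by edgeR, with a median of 0.06 1 member at an unadjusted p under 0.05 and 0 called by DESeq2.

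Abundant genes with large rises included the pud genes, named for proteins that are raised in daf-2 mutants. pud-2.1 was at 547, 477, 623 and 456 CPM in WT and 2080, 2430, 2220 and 2330 CPM in mutants (log2 fold change 2.11 ± 0.11 SE, n = 4 per group, edgeR adjusted p = 4.52e-05). pud-1.1 (2.07 ± 0.13), pud-3 (2.02 ± 0.15) and pud-4 (2.64 ± 0.16) rose with it. pud-1 and pud-2 have near-identical copies among which reads may be split. swt-6, a sugar transporter of the SWEET family, was at 4.88, 6.21, 4.79 and 4.04 CPM in WT and 27.6, 26.3, 29 and 28.9 CPM in mutants (2.49 ± 0.13). The tetraspanin genes tsp-1 (3.13 ± 0.20) and tsp-2 (2.58 ± 0.19), and gpdh-1 (1.57 ± 0.11), a glycerol-making enzyme gene induced by osmotic stress, rose too. The pud, swt, tsp and gpdh genes were chosen after their values were seen.

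Defence gene lists held both rises and falls. Of 121 C-type lectin genes 15 rose (12.4%) and 7 fell (5.8%), against 3.70% and 5.36% of all genes. clec-66 was at 33.5, 25, 26.6 and 25 CPM in WT and 51.9, 54, 54.2 and 51.3 CPM in mutants (log2 fold change 0.94 ± 0.10), and clec-10 fell from 14.8 to 27.0 CPM down to 7.16 to 8.46 CPM (-1.52 ± 0.18). The number of rising lectins was between 5 (without mutant 2) and 16 with 1 library left out, and against WT 1 and 3 alone 21 lectins were called higher and 17 lower. Among 29 lysozyme, saposin-like and antibacterial genes 5 rose (17.2%) and 3 fell (10.3%). Their median was 0.17 (-0.03 against WT 1 and 3 and 0.24 against WT 2 and 4), and between 2 (without mutant 1) and 4 rose with 1 library left out. lys-3 was at 4.03, 2.84, 4.07 and 2.62 CPM in WT and 11.7, 16.4, 17.9 and 14.7 CPM in mutants (2.17 ± 0.20), and spp-5, a pore-forming saposin-like protein gene, rose by 0.52 ± 0.06 on the log2 scale. ilys-5 (-0.93 ± 0.10) and spp-4 (-0.69 ± 0.08) fell. All 11 tested genes of the PMK-1 pathway and irg group, known from infected worms, were positive (median 0.30), and 4 rose (36.4%). Among the 4 were irg-4 (1.07 ± 0.15, call lost in 1 of the 8 fits) and irg-5 (1.32 ± 0.25, lost in 6). Between 0 (without mutant 2) and 4 of the 11 were called with 1 library left out. Of 15 epidermal antimicrobial peptide genes 0 were called by edgeR and 12 were negative (median -0.28), with 3 at an unadjusted p under 0.05 and 1 called by DESeq2.

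Detoxification families held both rises and falls, to be read against 3.70% of all genes higher and 5.36% lower. Of 59 UDP-glucuronosyltransferases, which attach sugars to small molecules, 8 rose (13.6%) and 6 fell (10.2%). ugt-44 was at 49.6, 42.9, 42.8 and 45.4 CPM in WT and 151, 172, 135 and 156 CPM in mutants (log2 fold change 1.77 ± 0.09 SE, n = 4 per group, edgeR adjusted p = 3.95e-05). ugt-31 (1.83 ± 0.12) rose, whereas ugt-19 (-1.21 ± 0.11) and ugt-17 (-0.84 ± 0.06) fell. ugt-18, with 32 counts in WT and 457 in mutants, had a ratio of 12.3 (exact 95% interval 8.62 to 18.3, counting error only) and lost its call in 1 of the 8 fits. Of 39 glutathione S-transferases 2 rose (5.1%) and 5 fell (12.8%), and between 2 (without mutant 2) and 6 fell with 1 library left out. gsto-1, of the omega class, dropped from 85.7, 61.9, 63.2 and 65.5 CPM to 11.2, 10.8, 15.7 and 10.2 CPM (-2.53 ± 0.17), and gst-22 rose by 1.86 ± 0.16 on the log2 scale. Of 53 cytochrome P450 genes 1 rose (1.9%) and 3 fell (5.7%), shares near or below those of all genes, and between 1 (without mutant 2) and 3 fell with 1 library left out. cyp-14A5 (-2.04 ± 0.22) was among those that fell.

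Nuclear hormone receptors, a family greatly expanded in worms, leaned upward. Of 190 tested, 16 rose (8.4%, against 3.70% of all genes), 1 fell and 141 were positive, with a median of 0.22. nhr-11 was at 4.32, 5.60, 3.92 and 5.50 CPM in WT and 14.2, 16.7, 14.3 and 15.3 CPM in mutants (log2 fold change 1.64 ± 0.14). nhr-63 (1.40 ± 0.15) and nhr-55 (1.30 ± 0.15) rose, and the receptor that fell was nhr-68. Leaving out 1 library left between 5 (without WT 3) and 14 rising receptors.

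Among neuropeptide genes, the FMRFamide-like family held most of the calls. Of 30 FMRFamide-like peptide genes tested, 7 rose, 0 fell and all 30 were positive (median 0.37), a share of 23.3% called against 3.70% of all genes. Their summed level was 344, 304, 328 and 316 CPM in WT and 428, 402, 418 and 415 CPM in mutants, with no overlap. flp-3 was at 11.1, 10.6, 11.4 and 11.0 CPM in WT and 19.3, 17.6, 18 and 17.9 CPM in mutants (log2 fold change 0.72 ± 0.07 SE, n = 4 per group, edgeR adjusted p = 0.000468), and flp-15 at 5.34 to 5.48 and 7.58 to 9.24 CPM (0.67 ± 0.09). Between 2 (without WT 4) and 10 flp genes were called with 1 library left out. Of 52 other neuropeptide genes of the nlp family, 1 rose (1.9%), 0 fell and 43 were positive, and their summed levels overlapped, at 1070 to 1290 CPM in WT and 1230 to 1350 CPM in mutants. The gene that rose, nlp-21, lost its call in 6 of the 8 fits. Of 11 neuron markers 3 rose (27.3%), by 0.37, 0.33 and 0.32 on the log2 scale. In that order they were egl-3 and egl-21, which cut neuropeptides from their precursors, and ida-1 of dense core vesicles. Each lost its call in 7 of the 8 fits, and the median of the 11 markers was 0.10.

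Shares called in the signalling lists are to be read against 3.70% of all genes higher and 5.36% lower. All 11 insulin signalling genes were positive, and 2 rose (18.2%). They were daf-2, the insulin receptor gene (log2 fold change 0.34 ± 0.06), and akt-1, a kinase gene downstream (0.27 ± 0.05). Their calls were lost in 7 and 6 of the 8 fits. Of 23 insulin-like peptide genes 2 rose (8.7%), ins-37 (0.53 ± 0.08, lost in 4) and ins-7 (1.08 ± 0.20, lost in 7). daf-28 was at 4.6, 5.2, 4.68 and 4.27 CPM in WT and 3.40, 3.18, 4.82 and 3.65 CPM in mutants, and ins-6 at 3.89, 3.10, 4.03 and 3.00 and 3.44, 2.62, 2.86 and 3.00 CPM. Both, chosen after their values were seen, overlapped between groups and did not pass the test. ins-37 overlaps F08G2.9 and daf-2 overlaps linc-143 on the same strand. All 19 genes of TGF-beta and dauer hormone signalling were positive (median 0.27), and 3 rose (15.8%). Among them, sma-9 was at 94.9, 98.3, 96.8 and 96.7 CPM in WT and 142, 132, 142 and 140 CPM in mutants (0.52 ± 0.05, edgeR adjusted p = 0.000307). The Smad gene sma-4 (0.54 ± 0.07) rose too, and both genes are of the pathway that sets body size. Of 12 genes that the transcription factor DAF-16 is known to induce, 3 rose (fat-7, lys-7 and icl-1) and 0 fell, each losing its call in 5 to 7 of the 8 fits. sod-3, another such gene, was at 1.69 to 2.47 CPM in WT and 1.48 to 1.95 CPM in mutants.

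Calls in the sperm, germ granule and nspa to nspe lists were falls, to be read against 5.36% of all genes lower and 3.70% higher. Of 26 cell cycle and DNA replication genes 1 rose (3.8%), near the share of all genes, 0 fell and 22 were positive. Of 40 spermatogenesis genes other than major sperm proteins, 6 fell, 0 rose and 37 were negative (median -0.38), and their summed level was 1470, 1780, 1790 and 1730 CPM in WT and 1330, 1340, 1390 and 1370 CPM in mutants. Of 35 major sperm protein genes, which are near-identical to each other, 9 fell (25.7%) and 34 were negative (median -0.60). Their sums overlapped, at 4970 to 7370 CPM in WT and 3930 to 5460 CPM in mutants. The calls of both sperm lists depended on single libraries. Between 0 (without WT 4) and 14 major sperm protein genes and between 0 (without WT 3) and 10 of the other genes were called when 1 was left out. Of 32 genes of meiosis and germ granules 3 fell (9.4%), 0 rose and 12 were positive, with a median of -0.05. glh-1, a helicase gene of germ granules and 1 of the 3, was at 783, 688, 708 and 680 CPM in WT and 438, 448, 451 and 465 CPM in mutants (log2 fold change -0.67 ± 0.06 SE, n = 4 per group, edgeR adjusted p = 0.000358), and pgl-1, another germ granule gene, at 488 to 518 and 374 to 388 CPM (-0.37 ± 0.05). Of 47 small peptide genes of the nspa to nspe families 11 fell (23.4%), 0 rose and 9 were positive, with between 8 (without mutant 2) and 17 falling when 1 library was left out. Against WT 1 and 3 alone 8 members were called higher and 12 lower. nspc-2, on chromosome X, fell from 42.4 to 57.1 CPM in WT to 5.81 to 8.90 CPM (-2.58 ± 0.16), and nspc-1 from 11.4 to 12.4 CPM down to 2.95 to 4.21 CPM (-1.77 ± 0.13). Copies of this family are alike as well.

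Genes tied to the stage of the animal depended on the WT pair, and apart from 2 collagens none of those listed here passed the test. All 23 oocyte and eggshell genes were positive, with a median of 0.50, but of 0.98 against WT 1 and 3 and 0.17 against WT 2 and 4. Their sums were 2060, 4640, 3050 and 4120 CPM in WT and 5330, 4500, 3960 and 4360 CPM in mutants, which overlap. The 6 vitellogenin genes, which encode yolk, had a median of 0.96 against WT 1 and 3 and -0.50 against WT 2 and 4, since they summed to 8490 and 9740 CPM in the first pair and 27900 and 26600 CPM in the second. Mutant sums were 33000, 25500, 16400 and 19200 CPM. The 16 genes of molting changed the other way round, with medians of -1.18 and 1.02 and sums of 3010 and 1740 CPM in WT 1 and 3, 412 and 660 CPM in WT 2 and 4 and 869 to 1300 CPM in mutants. For hedgehog-related genes the medians were -0.52 and 0.46 and for cuticle collagens -0.21 and 0.22. Against all 4 WT libraries, 0 molting, 0 hedgehog-related, 0 vitellogenin and 0 oocyte genes were called by edgeR. In that order, 1, 3, 0 and 9 had an unadjusted p under 0.05, and 1, 0, 0 and 1 were called by DESeq2. Of 143 collagens 2 rose (1.4%) and 0 fell, shares below the 3.70% and 5.36% of all genes. The stronger of the 2 was col-76, at 77.8 to 95.5 CPM in WT and 144 to 177 CPM in mutants. The molting, yolk and oocyte sums of the mutants lay between or near those of the WT pairs; the part of stage in the other results was not tested beyond the values against each pair.

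**Figure D5:**
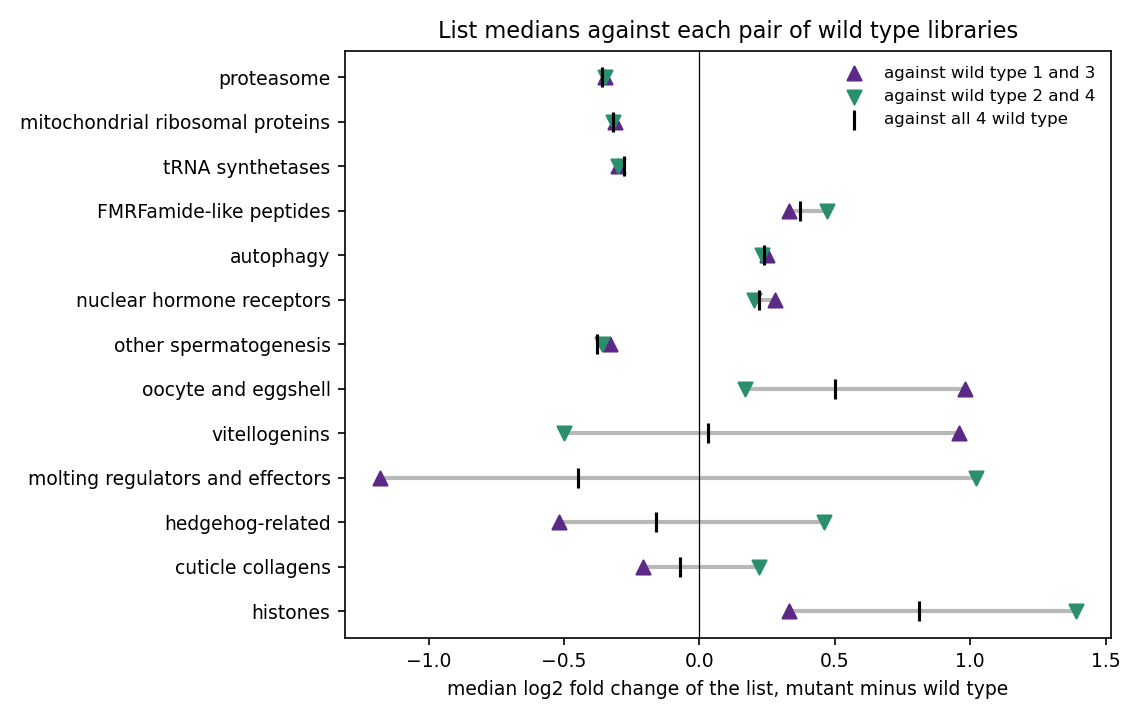
Median log2 fold change of 13 gene lists, mutant minus wild type, computed against wild type 1 and 3 (upward triangles), wild type 2 and 4 (downward triangles) and all 4 (bars). The proteasome, mitochondrial ribosome, tRNA synthetase and autophagy medians hardly move, whereas molting genes go from -1.18 to 1.02 and vitellogenins from 0.96 to -0.50.

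Tissue marker lists differed in how many members passed the test. Of 5 germline markers 2 fell, glh-1 and pgl-1, and all 5 were negative (median -0.17). Their summed level was 1490 to 1580 CPM in WT and 1120 CPM in every mutant library, with no overlap. Of the sperm markers 9 fell (22.5%, against 5.36% of all genes) and 39 were negative. Between 0 (without WT 4) and 14 sperm markers were called with 1 library left out, and their sums overlapped. Body wall muscle (5 genes), intestine (5) and epidermis (5) had 0 genes called by edgeR and medians of -0.01, 0.07 and 0.07, with 1, 2 and 1 members at an unadjusted p under 0.05 and 0, 1 and 1 called by DESeq2. Of 4 pharynx markers 1 rose, pha-4, the FoxA factor that specifies the pharynx, at 12.2, 11.5, 11.3 and 12.2 CPM in WT and 18.6, 18.7, 21 and 20.2 CPM in mutants (log2 fold change 0.73 ± 0.07 SE, n = 4 per group, edgeR adjusted p = 0.000606). The 5 embryo markers were too low to be tested in these larvae. Histone genes had a median of 0.81, but of 0.33 against WT 1 and 3 and 1.39 against WT 2 and 4. Of 45 histone genes 5 were called higher (11.1%) and 1 lower (2.2%), against 3.70% and 5.36% of all genes. With 1 library left out, between 0 (without WT 4) and 5 were called higher and between 0 (without WT 3) and 1 lower. Histone genes are multicopy and their messages mostly lack the tail by which the libraries were selected, so single values are uncertain.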

How the data were processed

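Gene expression was measured by polyadenylated RNA sequencing of 4 wild type and 4 raga-1 mutant samples of C. elegans. The authors ran the bcbio-nextgen pipeline, with STAR alignments to the Ensembl 94 genome (WBcel235) for quality checks and Salmon abundances collapsed to genes with tximport, and deposited estimated counts per gene. A second deposited table held a normalized signal, which was checked to equal, within 0.01 counts, the rounded counts divided by DESeq2 size factors and was not tested. Per the submitters' processing notes CASAVA, Salmon and DESeq2 were used. Neither deposited table held comparisons by the authors.

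Estimated counts were rounded to whole numbers. Genes were kept by edgeR's filterByExpr (15307 of 21882), scaled by TMM and tested two-sided with the quasi-likelihood test of edgeR 4.0.16 (R 4.3.3) on the 8 samples, with Benjamini-Hochberg adjustment and a threshold of 0.01. SE is the log2 fold change divided by the square root of F. CPM used TMM-scaled library sizes. Totals ranged from 14287510 to 35619305 counts. Exact intervals cover counting error only. On simulated data with 200 changed genes of 15200, edgeR recovered 32% of 2-fold and 1% of 1.5-fold changes with 0% false calls. DESeq2 recovered 61% and 35% there, and 13.5% of its calls were false. The data held more calls (1387) than the simulation had changed genes, which moves the cutoff of the adjusted p. These rates therefore do not carry over to the data, where small changes may still be missed. No pair of libraries agreed within sampling noise. The labels give each sample its own egg lay, and p-values measure the spread between these samples.

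Named genes were raga-1, the 10 largest rises and 10 largest falls among called genes without overlap and with a mean of at least 1 CPM, up to 4 called members with the smallest p in each list, and neighbours within 100 kb of raga-1. Genes outside this rule were chosen after their values were seen, among them acs-2, cpt-1, cpt-5, lipl-2, lipl-5, cpr-3, cpr-5, ech-6, atfs-1, sod-3, hsp-4, let-363, ragc-1 and the neighbours of F08G2.5. The gene lists, members and tests were chosen with earlier results of these data known. Gene positions were read from a later Ensembl annotation of the same assembly, which held 21714 of the genes. Planned promoter motifs and protein sequences were not analysed here. Alternatives were DESeq2 1.42.0, other scalings, filters, thresholds and blocks, and fits without single libraries or wild type pairs.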

Additional observations from a re-analysis of the deposited data

Results flagged for a closer look

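Of 264 groups of 4 values examined, 16 had 1 sample whose gap to the nearest of the others, as a part of the group's range, was past Dixon's 95% critical value, which chance passes in about 1 of 20 groups. The following values are given with no explanation.

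WT sample 4 held 3 of them. acdh-1 was at 77.7 CPM there and at 12.6 to 19.2 CPM in the other WT samples. ech-6, of the same propionate shunt, was at 244 CPM against 182 to 191 CPM. irg-5 was low, at 7.92 CPM against 18.3 to 19.4 CPM.

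WT sample 1, the library with the lowest total, held 6. gsto-1 was at 85.7 CPM against 61.9 to 65.5 CPM, nspc-2 at 57.1 against 42.4 to 44.7 CPM, ugt-31 at 7.92 against 5.73 to 6.05 CPM and egl-21 at 94 against 80.8 to 82.9 CPM. hsp-60 was low, at 598 CPM against 671 to 682 CPM. The summed spermatogenesis genes other than major sperm proteins were low as well, at 1470 against 1730 to 1790 CPM.

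In WT sample 2, pgl-1 was at 518 CPM against 488 to 490 CPM, and in WT sample 3 clu-1 was at 365 CPM against 374 to 375 CPM.

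Among mutants, the summed major sperm protein genes were at 5460 CPM in sample 1 against 3930 to 4190 CPM. C04H5.9 was at 3.71 CPM in sample 2 against 1.66 to 1.99 CPM. In sample 4, gfm-1 was at 117 CPM against 106 to 107 CPM, cyp-14A5 at 8.46 against 5.69 to 6 CPM and rpt-6 at 137 CPM against 143 CPM in each of the others.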

How the results depend on the processing

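The counts of 566 higher and 821 lower genes moved by over 1.5 times under several settings, and 0 of the 1387 genes changed direction under any of them. DESeq2 called 1189 and 1601, a fit of all 12 samples 1001 and 1417, and a threshold of 0.05 1531 and 2032. Testing against a fold of 1.5 left 71 and 41. Scaling by library size alone gave 513 higher and 512 lower, so the share of higher calls went from 40.8% to 50.0%. Against WT 1 and 3 the counts were 1699 and 1622, and against WT 2 and 4 they were 869 and 885. Leaving out 1 library gave 179 to 526 higher and 250 to 793 lower genes, with the fewest without mutant sample 2, and between 427 and 1085 of the 1387 calls kept. Other filters and scalings stayed within 1.5 times.

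Replicate numbers did not pair the samples. Correlations of same-numbered deviations were -0.19, -0.04, 0.35 and 0.11. With the number as a replicate block 115 genes were higher and 85 lower. With collection day as a block 0 were higher and 1 lower, and correlations within shared days were 0.04, -0.37 and -0.05.

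Of the 116 called genes named, 0 changed sign, 91 kept their call in all 8 fits without 1 library, 57 lost it with the replicate block, 115 with the day block, and 7 and 6 against the WT pairs. At these depths, 3 counts are 0.0836 to 0.212 CPM, and changes of genes near that level could not be resolved. The causes of these differences were not tested.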

Other observations

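Calls were not spread alike over the chromosomes. On X, 87 genes rose (4.12%) and 30 fell (1.42%) of 2114 tested, while on chromosome I 52 rose (2.11%) and 161 fell (6.52%) of 2470. Chromosome V had 160 rises (5.26%) and 131 falls (4.31%). The median log2 fold change was 0.11 on X, 0.06 on V and between -0.05 and -0.02 on the other autosomes. These shares were not tested.

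Some small families were picked after their counts were seen. All 4 tomm genes and 4 of 5 tin genes tested, which encode parts of the machinery that imports proteins into mitochondria, fell, with medians of -0.50 and -0.43. Of 56 transthyretin-like ttr genes 8 rose and 0 fell, of 12 galectin (lec) genes 5 rose, and of 11 zip transcription factor genes 5 rose.

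Over all genes tested, 3.70% rose and 5.36% fell. Of the F-box genes tested 8 rose (4.9%) and 3 fell (1.8%), and between 4 (without mutant 2) and 10 rose with 1 library left out. Of 75 BATH, MATH and BTB genes 5 rose (6.7%) and 3 fell (4.0%), and between 1 (without WT 4) and 4 rose with 1 library left out. Of 83 chemosensory receptor genes tested, out of 1644 in the table, 7 rose (8.4%) and 0 fell, and between 2 (without mutant 2) and 8 rose with 1 library left out.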
